A study of Homo sapiens with 6 samples.

Results

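Genes of the amino acid transporter families SLC1, SLC3, SLC6, SLC7, SLC36, SLC38 and SLC43 were examined on arrays of ARPE-19 cells. This line arose spontaneously from human retinal pigment epithelium. Some genes of these families carry other substrates, such as creatine for SLC6A8, and are counted with the rest. Members were defined by gene symbol, through probe sets that the platform annotation ties to a single symbol, and numbered 59 of the 18132 genes on the array. Each gene was read from its brightest probe set, and 35 of the 59 were above the brightness floor and were tested. The study held 3 samples exposed for 3 h to 10 mU/ml glucose oxidase, an enzyme that makes hydrogen peroxide from glucose and oxygen, and 3 samples at 0 h without the enzyme. All were transfected beforehand with a plasmid for green fluorescent protein according to the design text, whereas the sample descriptions name a construct with alpha satellite, a centromeric repeat, for the 3 h samples, so exposure and construct cannot be told apart if those descriptions hold. No group was kept for the same time without enzyme, and the labels do not say that replicates came from separate cultures, so p-values may measure technical spread only.

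Amino acids cross membranes through carriers that differ in substrate, ion coupling and location. SLC7 light chains such as LAT1 and xCT reach the cell surface only when joined to a heavy chain of the SLC3 family, SLC1 and SLC6 carriers use the sodium gradient, and several SLC36 and SLC38 carriers sit in the lysosome, where they report amino acid supply to the growth kinase complex mTORC1. Pigment epithelium is known for the transport of taurine and other amino acids between the blood and the photoreceptors.

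The promoters of the 3 members with the largest increases, of SLC3A2, the heavy chain partner of SLC7A5, and of the member with the largest decrease are shown because in other cells the response to amino acid shortage is known to act on several of these genes through a short element in or near the promoter. The sequences, 5′ to 3′, are from RefSeq (GRCh38.p14) and cover 250 bases before to 50 after 1 annotated start of each gene. For SLC3A2, and for some members not shown such as SLC38A1, this start lies inside the gene's span and not at its outer end. Capitals mark matches on either strand to TGATGNAA, the core of the amino acid response element bound by ATF4, to TGACNNNGC, the core of the antioxidant response element bound by NRF2, or to CACGTG, the E-box. 
SLC7A5, chr16:87869458-87869757, minus strand: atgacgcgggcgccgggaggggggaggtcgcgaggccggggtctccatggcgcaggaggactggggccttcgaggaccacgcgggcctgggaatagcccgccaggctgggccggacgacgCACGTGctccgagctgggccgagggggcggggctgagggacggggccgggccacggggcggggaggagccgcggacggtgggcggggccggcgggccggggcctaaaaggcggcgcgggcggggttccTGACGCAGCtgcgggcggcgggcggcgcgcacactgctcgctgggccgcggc
SLC7A1, chr13:29595639-29595938, minus strand: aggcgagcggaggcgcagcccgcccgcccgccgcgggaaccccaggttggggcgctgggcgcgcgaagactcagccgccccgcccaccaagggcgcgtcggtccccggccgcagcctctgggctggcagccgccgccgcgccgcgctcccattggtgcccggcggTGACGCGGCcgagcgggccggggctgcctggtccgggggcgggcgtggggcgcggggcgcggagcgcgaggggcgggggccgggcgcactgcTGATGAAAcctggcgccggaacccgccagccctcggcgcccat
SLC3A2, chr11:62881449-62881748, plus strand: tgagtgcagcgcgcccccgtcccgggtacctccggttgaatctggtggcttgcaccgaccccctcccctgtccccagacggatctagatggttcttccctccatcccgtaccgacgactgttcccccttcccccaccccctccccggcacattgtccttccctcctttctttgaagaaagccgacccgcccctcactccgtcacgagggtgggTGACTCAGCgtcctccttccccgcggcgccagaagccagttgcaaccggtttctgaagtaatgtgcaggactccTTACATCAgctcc
SLC38A7, chr16:58684721-58685020, minus strand: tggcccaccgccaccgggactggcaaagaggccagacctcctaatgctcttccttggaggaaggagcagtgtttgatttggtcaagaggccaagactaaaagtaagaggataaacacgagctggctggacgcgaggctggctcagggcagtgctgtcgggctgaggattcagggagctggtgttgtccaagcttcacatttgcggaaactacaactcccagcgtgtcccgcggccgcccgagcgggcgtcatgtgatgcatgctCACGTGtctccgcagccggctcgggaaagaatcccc
SLC38A9, chr5:55712286-55712585, minus strand: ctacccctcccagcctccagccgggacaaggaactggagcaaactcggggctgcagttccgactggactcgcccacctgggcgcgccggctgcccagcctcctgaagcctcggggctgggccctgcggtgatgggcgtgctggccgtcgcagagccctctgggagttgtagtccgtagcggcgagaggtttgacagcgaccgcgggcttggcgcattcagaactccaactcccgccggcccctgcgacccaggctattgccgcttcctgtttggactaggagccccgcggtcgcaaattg

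Of 45 members with a promoter in the table, 4 held TGATGNAA, which is 8.9%, against 3.7% of all 27305 promoters of the same length. These 4 were SLC1A3, SLC38A1, SLC3A2 and SLC7A1. SLC7A1 held the letters TGATGAAA from base 258, and SLC3A2 held the motif on the opposite strand from base 288. TGACNNNGC was found in 5 of 45 members, or 11.1%, against 13.6% of all promoters, and the 5 were SLC3A2, SLC7A1, SLC7A5, SLC7A6 and SLC7A7. CACGTG was found in 6 of 45, or 13.3%, against 7.4% of all, and the 6 were SLC7A5, SLC38A7, SLC1A7, SLC38A5, SLC43A1 and SLC6A16. The promoter of SLC38A9 held none of the 3 motifs. SLC7A11, SLC6A6 and SLC6A15 are among the members without a promoter sequence here, so they were not searched for any motif. No matches of TGATGNAA and TGACNNNGC overlapped in the sequences shown, and a match is a description of the letters, not a measured binding site.

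Over the whole array, changes at 3 h were numerous and small. Of 12221 genes tested, 20.6% were called higher and 30.8% lower at 3 h (limma, adjusted p under 0.05), 51.3% in all, and the groups did not overlap for 24.8% upward and 35.7% downward, 60.5% in all. Control probe sets differed between the groups as well. The 24 poly-A spike probe sets were lower on every 3 h array than on any 0 h array, by a median of -0.60 on the log2 scale. The same held for 17 of 18 hybridization spike probe sets, with a median of -0.31 over the 18. Actin read lower at its 5′ end than at its 3′ end by a log2 difference of -1.20 ± 0.06 at 3 h and -2.06 ± 0.07 at 0 h (SD, n = 3 each). For GAPDH this difference was -0.13 ± 0.04 at 3 h and -0.39 ± 0.05 at 0 h. These differences run along with every transporter result below, and their part in those results was not tested. Of 14 pigment epithelium markers on the array, 9 were above the floor, of which KRT8, KRT18, OTX2 and MITF rose, SERPINF1 fell by 0.405, and BEST1, PMEL, TTR and TYR did not pass, while RPE65, RLBP1, LRAT, TYRP1 and MERTK were under it. Their summed log2 value was 86.1 to 87.4 on the 3 h arrays and 85.2 to 85.6 on the 0 h arrays. Summed markers ran from 36.1 to 36.6 at 3 h and from 36.9 to 37.0 at 0 h for photoreceptors and neurons (6 markers), from 23.0 to 23.4 and from 22.6 to 22.9 for glia (4 markers), and from 27.2 to 27.8 and from 26.9 to 27.3 for blood and endothelium (6 markers), in the same order of groups. The glial sum includes GLUL, which is glutamine synthetase and rose by 0.42. Of the 6 blood and endothelium markers, 4 were above the floor, CD3E, HBB, PECAM1 and VWF, while PTPRC and CDH5 were under it. Above the floor were also 4 of the 6 photoreceptor and neuron markers and 2 of the 4 glial markers.

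Among the 35 tested transporter genes, 11 rose, 5 fell and 19 did not pass, so that 31.43% were higher and 14.29% lower, beside 20.6% and 30.8% of all tested genes. Their groups did not overlap for 19 genes, 13 higher and 6 lower, which is 54.3% beside 60.5% of all. The median log2 change was 0.12, against -0.04 over all tested genes. Increases of at least 2-fold were seen for SLC7A5 and SLC7A1, and the 5 decreases were all smaller than that. In lysates of a whole culture, fewer cells with a transcript and less of it in each cell cannot be told apart.

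**Figure D1:**
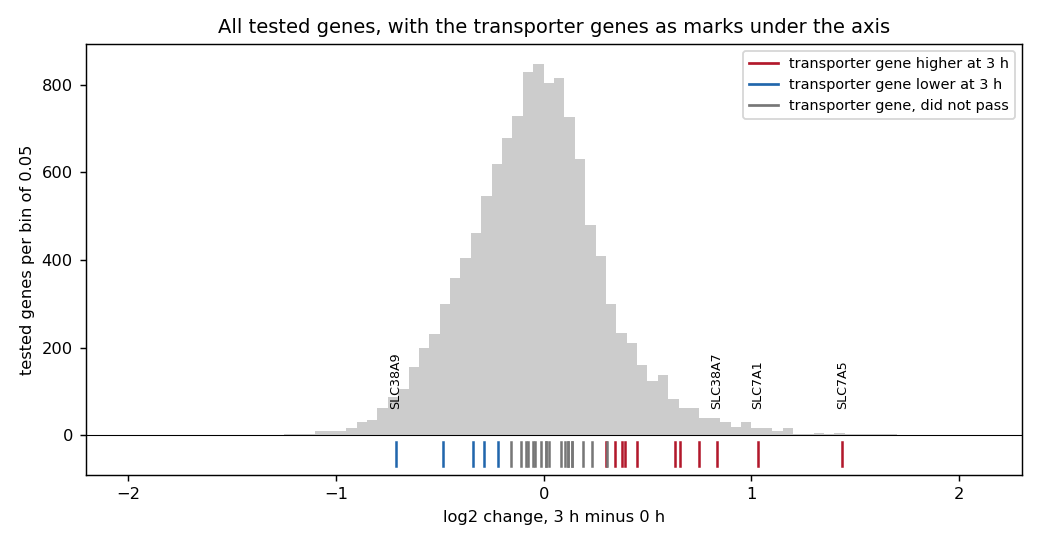
Log2 change at 3 h minus 0 h (x axis) against the number of tested genes per bin of 0.05 (y axis, grey), with the 35 tested transporter genes as marks under the axis, coloured by the outcome of the test. SLC7A5, at 1.44, ranked 15th from the highest of 12221 genes, and SLC38A9, at -0.71, lay at the low end of the transporter genes.

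The tested heavy chain gene rose, as did 2 of 4 tested light chain genes, a share called of 50%, near the 51.3% of all tested genes. SLC7A5 encodes LAT1, the exchanger of leucine and other large neutral amino acids. Its log2 values were 8.70, 8.82 and 8.73 at 3 h, against 7.25, 7.29 and 7.39 at 0 h. All 3 h arrays lay far above the 0 h arrays. The log2 change was 1.44 (SE 0.06, n = 3 per group, adjusted p = 5.61e-06), a 2.71-fold increase. The other probe set of SLC7A5, whose name marks it as shared by several transcripts, rose by less, with log2 values of 6.68, 6.74 and 6.76 at 3 h and 6.43, 6.37 and 6.33 at 0 h. Averaged over both, the change was 0.89 with an adjusted p of 2.86e-06, so the direction did not depend on the probe set while the size did.

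SLC3A2 encodes the CD98 heavy chain, which carries LAT1 and xCT to the cell surface. It read 11.24, 11.17 and 11.24 at 3 h, against 10.74, 10.78 and 10.79 at 0 h. The groups were apart by more than their spread, with a log2 change of 0.45 (SE 0.05, adjusted p = 0.000235). All 7 of its probe sets were higher on every 3 h array than on any 0 h array, with changes of 0.13 to 0.61. SLC7A6, which encodes the light chain y+LAT2 for cationic and neutral amino acids, read 6.84, 6.89 and 6.92 at 3 h, against 6.59, 6.53 and 6.48 at 0 h. It rose by 0.35, and the mean of its 3 probe sets by 0.19, with no overlap of the groups for the brightest set. SLC7A8, which encodes LAT2, stood at 0.10 with an adjusted p of 0.325, and its groups overlapped.

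SLC7A11 encodes xCT, which imports cystine in exchange for glutamate and so feeds glutathione synthesis. Its brightest probe set read 8.13, 7.99 and 8.0 at 3 h, against 8.21, 8.22 and 8.17 at 0 h, a log2 change of -0.16 that missed the threshold (adjusted p = 0.0503). The groups did not overlap, yet the difference was small. A less bright probe set went the other way, with 6.56, 6.61 and 6.90 at 3 h, against 6.17, 6.07 and 5.90 at 0 h, a change of 0.64. The remaining set stood at -0.15 with overlapping groups, and the average of all 3 was 0.11 with an adjusted p of 0.0838. No direction can therefore be given for SLC7A11. Its call also depended on a single array, since without 3 h replicate 1 the brightest set passed as lower, at -0.20 (adjusted p = 0.0202). The other light chains SLC7A7, SLC7A9, SLC7A10 and SLC7A13, and the second heavy chain gene SLC3A1, were under the floor, with group means of 2.71 to 4.45 at 3 h and 2.71 to 4.36 at 0 h.

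**Figure D2:**
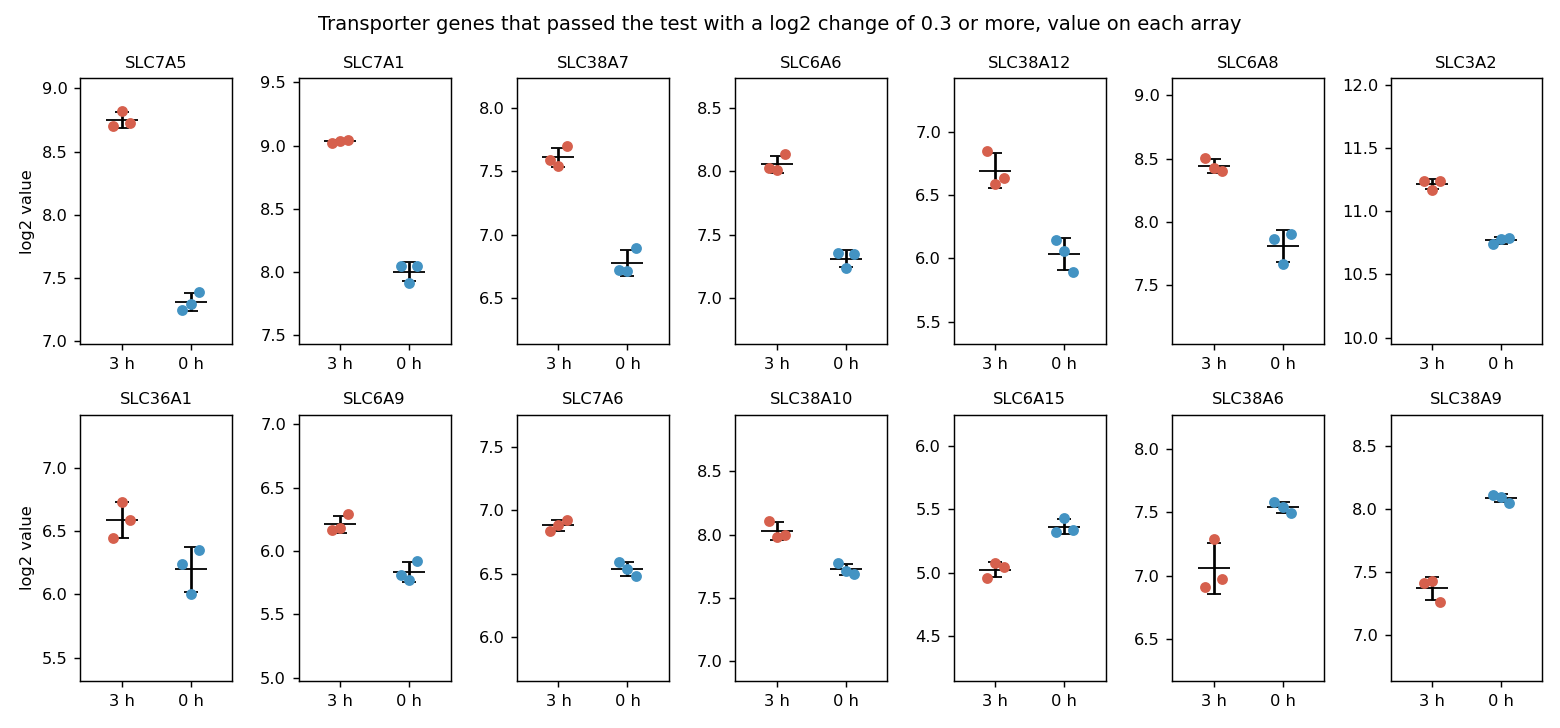
Log2 value (y axis, the same span of log2 units in each panel) of the 14 transporter genes that passed the test with a log2 change of 0.3 or more, on the 3 h and 0 h arrays (x axis). Points are arrays, and bars are the mean ± SD of 3 arrays. The 3 h points lie above the 0 h points for 11 genes and below them for SLC6A15, SLC38A6 and SLC38A9.

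Among carriers of cationic amino acids, SLC7A1 encodes CAT1, which takes up arginine, lysine and ornithine. Its values were 9.02, 9.03 and 9.05 at 3 h, against 8.05, 7.91 and 8.05 at 0 h. The log2 change was 1.03 (SE 0.06, adjusted p = 1.28e-05), or 2.04-fold, and the 3 h arrays had an SD of 0.012, the smallest of the 59 members. The other probe sets above the floor rose by more, 1.66 and 1.51, and a dim one by 1.08, so that all 4 were higher on every 3 h array. SLC7A4, a relative of the cationic carriers, stood at -0.05 (adjusted p = 0.545). SLC7A2, SLC7A3 and SLC7A14 were under the floor.

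The SLC1 carriers of glutamate and neutral amino acids moved little. SLC1A1 encodes EAAT3, which takes up glutamate and cysteine. Its values of 4.49, 4.81 and 4.58 at 3 h, against 5.05, 4.82 and 4.86 at 0 h, gave a fall of 0.28 that just passed (adjusted p = 0.0368). The 3 h mean of 4.63 was under the floor of 4.64, and SLC1A1 is the only tested member with a group mean there. Its call ended without 3 h replicate 1 or 3 (-0.21, -0.26), without 0 h replicate 1 or 3 (-0.21, -0.31), and averaged over its probe sets (-0.13).

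SLC1A5 encodes ASCT2, an exchanger of glutamine and other neutral amino acids. It read 6.25, 6.29 and 6.17 at 3 h, against 6.09, 6.17 and 6.10 at 0 h, and its change of 0.12 did not pass (adjusted p = 0.127, 95% interval -0.02 to 0.25). The groups overlapped by a single array on each side. SLC1A4, which encodes the related ASCT1, stood at 0.14 (adjusted p = 0.304), and its 5 probe sets above the floor ran from -0.37 to 0.36, with groups apart in opposite directions for the lowest and the highest. SLC1A2 stood at 0.03 and SLC1A7, both glutamate carriers, at -0.11, and SLC1A7 passed as lower only without 3 h replicate 3 (-0.18). SLC1A3, the glial glutamate carrier gene whose promoter holds TGATGNAA, and SLC1A6 were under the floor.

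Carriers of the lysosome and of the SLC38 family moved in both directions. SLC38A9 encodes a lysosomal carrier that senses arginine for mTORC1. It read 7.42, 7.43 and 7.27 at 3 h, against 8.11, 8.09 and 8.05 at 0 h. The groups were well apart, with a fall of 0.71 on the log2 scale (SE 0.06, adjusted p = 7.56e-05), or 1.64-fold. Of its other probe sets, 1 fell by 0.71 as well, and the other by 0.12 with groups that did not overlap. The probe sets with the larger falls are both marked as shared or cross-hybridizing, and without such sets SLC38A9 stood at -0.12 and was not called (adjusted p = 0.110).

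SLC38A7 encodes SNAT7, which exports glutamine from the lysosome. Its values were 7.59, 7.55 and 7.70 at 3 h, against 6.72, 6.71 and 6.90 at 0 h. It rose by 0.83 (SE 0.07, adjusted p = 6.72e-05), and all 3 of its probe sets above the floor were higher on every 3 h array, by 0.83 to 0.90. SLC36A1, which encodes the proton-coupled carrier PAT1 of lysosomes and gut, read 6.44, 6.73 and 6.59 at 3 h, against 6.24, 6.0 and 6.35 at 0 h. It rose by 0.39, and its 4 probe sets above the floor changed by 0.14 to 0.43. The 0.14 belonged to the only set whose name carries no mark of any kind, and that set was not called (adjusted p = 0.213). Without sets marked as shared or cross-hybridizing, SLC36A1 stood at 0.43 and was called higher (adjusted p = 0.0139). SLC36A4, which encodes PAT4, a carrier of proline and tryptophan, read 6.90, 7.14 and 7.08 at 3 h, against 7.19, 7.35 and 7.24 at 0 h. It fell by 0.22 (adjusted p = 0.0420), and the call ended without 3 h replicate 1 or 3 (-0.15, -0.24), without any single 0 h array (-0.25 to -0.17) and with median centring (-0.20), while a set without the cross-hybridizing mark fell by 0.34.

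SLC38A12, formerly named TMEM104, read 6.85, 6.59 and 6.64 at 3 h, against 6.15, 6.06 and 5.90 at 0 h. It rose by 0.66 (adjusted p = 0.000491). Its 3 probe sets gave a mean change of 0.42, and 1 of them stood at 0.02. SLC38A6 fell by 0.48, with 6.91, 7.29 and 6.97 at 3 h, against 7.58, 7.54 and 7.50 at 0 h, and it has a single probe set. Its 3 h replicate 2 lay nearest to the 0 h arrays. SLC38A10 read 8.11, 7.98 and 8.0 at 3 h, against 7.77, 7.71 and 7.69 at 0 h, and rose by 0.30. The mean of its 2 probe sets changed by 0.11 and missed the threshold.

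SLC38A1, which encodes SNAT1, a sodium-coupled importer of glutamine, stood at 0.01 (adjusted p = 0.917), with 9.58, 9.41 and 9.72 at 3 h, against 9.56 on each 0 h array. Its probe sets disagreed, since another bright set was lower on every 3 h array by 0.34 and a dimmer set by 0.17. A further set above the floor stood at 0.16 with overlapping groups. Without sets marked as shared or cross-hybridizing, SLC38A1 stood at -0.17 and was not called (adjusted p = 0.0588). The system N carrier genes SLC38A3 and SLC38A5 stood at -0.04 and -0.01, with overlapping groups. SLC38A2, which encodes SNAT2, was under the floor with 4.07 at 3 h and 4.04 at 0 h for the brightest of its 3 probe sets, as were SLC38A4, SLC38A8 and SLC38A11, so no change can be read for them here. SLC36A2 and SLC36A3 were under it too.

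**Figure D3:**
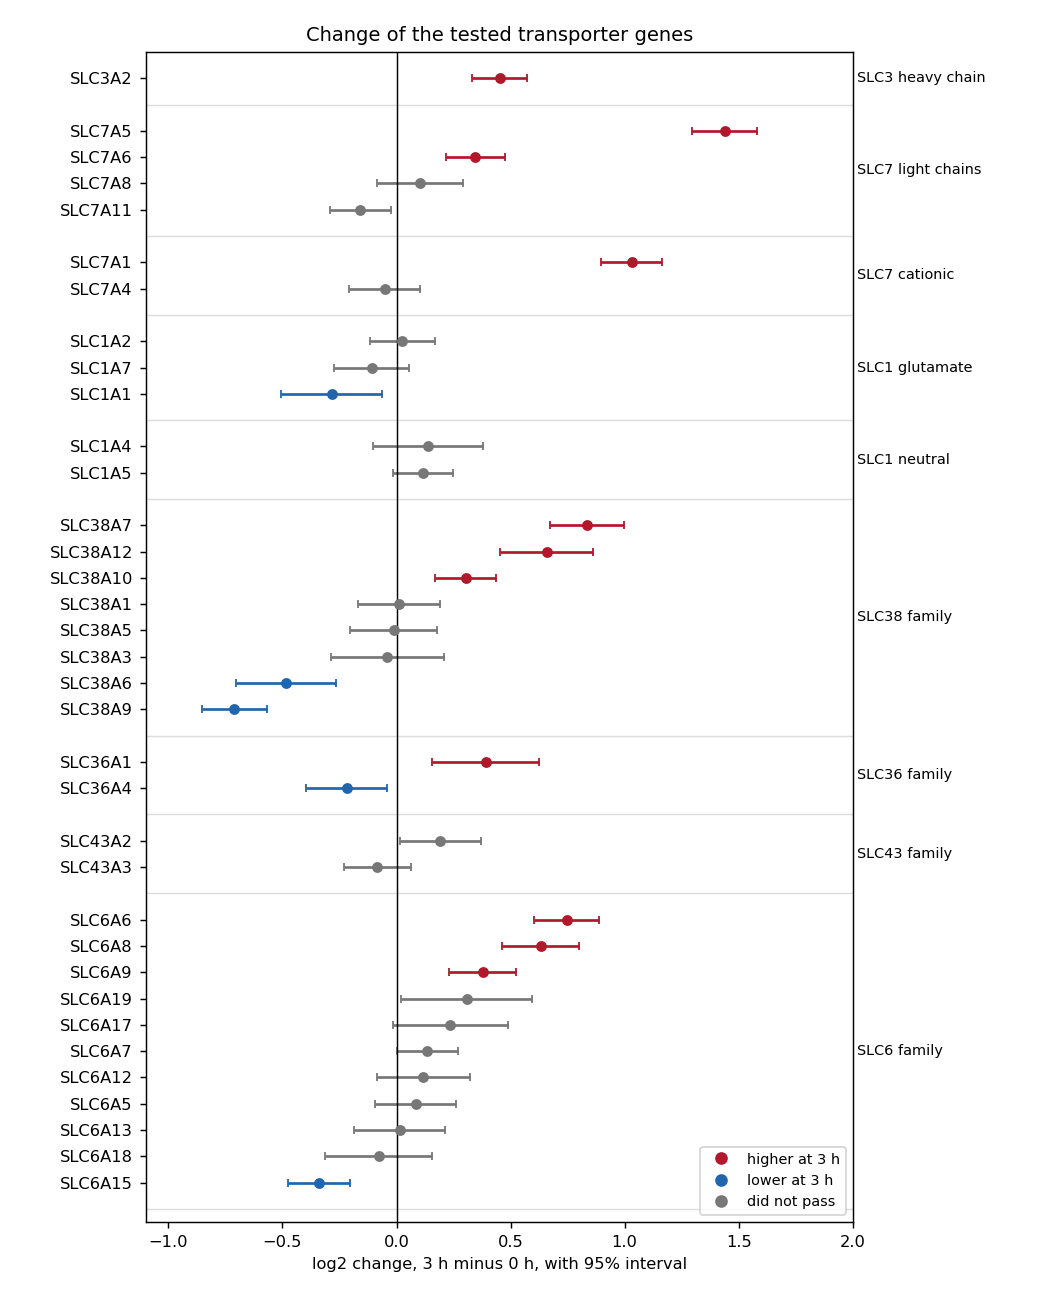
Log2 change at 3 h minus 0 h (x axis) with its 95% interval for the 35 tested transporter genes (y axis), grouped by family and role and coloured by the outcome of the limma test. Increases lead the heavy chain, light chain and cationic groups, the SLC38 family spans -0.71 to 0.83, and the intervals of most SLC1 genes cover 0.

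Within the SLC6 family, 3 genes rose, 1 fell and 7 did not pass, of 11 tested among 18 on the array. That is 27.3% higher and 9.09% lower, beside 20.6% and 30.8% of all tested genes. SLC6A6 encodes the taurine transporter. It read 8.02, 8.01 and 8.13 at 3 h, against 7.36, 7.23 and 7.34 at 0 h. The change was 0.75 (SE 0.06, adjusted p = 5.92e-05), or 1.68-fold, with no overlap of the groups for any of its 5 probe sets, including 2 under the floor. The next brightest set, with a mean log2 value of 5.8 against 7.7 for the brightest, changed by only 0.15, and the average of all 5 was 0.52.

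SLC6A8 encodes the creatine transporter, with 8.50, 8.43 and 8.40 at 3 h, against 7.87, 7.67 and 7.90 at 0 h. It rose by 0.63 (SE 0.07, adjusted p = 0.000241), and its 3 probe sets stood close together at 0.61 to 0.66. Copies of this gene exist elsewhere in the genome, so the signal of its probe sets may mix transcripts. SLC6A9, which encodes the glycine transporter GlyT1, read 6.17, 6.18 and 6.29 at 3 h, against 5.81, 5.77 and 5.92 at 0 h. It rose by 0.38. Together with its 6 dimmer probe sets, all under the floor, the mean change was 0.11 and missed the threshold. SLC6A15, which encodes B0AT2, a carrier of branched-chain amino acids and proline, read 4.96, 5.07 and 5.04 at 3 h, against 5.32, 5.43 and 5.34 at 0 h. It fell by 0.34 (adjusted p = 0.00170), and its other probe set fell by 0.50.

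The remaining SLC6 genes did not pass. SLC6A19, which encodes B0AT1, stood at 0.31 with overlapping groups (adjusted p = 0.0706), and passed as higher without 3 h replicate 3 (0.43) and with a trended, robust variance (adjusted p = 0.0371). Averaged with its 2 other probe sets, both under the floor at -0.19 and -0.35, it turned to -0.08 (adjusted p = 0.475), so no direction can be given. SLC6A17, a carrier of synaptic vesicles, stood at 0.23, and SLC6A7, the proline transporter gene, at 0.14. The groups of these 2 genes did not overlap, and both passed averaged over their probe sets (0.20, 0.17), SLC6A7 also without 3 h replicate 2 (0.18). SLC6A12, which encodes the betaine carrier, stood at 0.12 and passed without 3 h replicate 3 (0.22) and averaged over its probe sets (0.18), whereas it stood at -0.08 without sets marked as shared or cross-hybridizing. SLC6A5, SLC6A13 and SLC6A18 stood at 0.08, 0.01 and -0.08. SLC6A2, SLC6A3, SLC6A4, SLC6A11, SLC6A14, SLC6A16 and SLC6A20 were under the floor, with group means of 3.25 to 4.50 at 3 h and 3.11 to 4.47 at 0 h. In the SLC43 family, SLC43A2, which encodes the large neutral carrier LAT4, stood at 0.19 (adjusted p = 0.0681) and passed as higher without replicate 3 of either group (0.25, 0.25). SLC43A3 stood at -0.08, and SLC43A1 was under the floor.

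Agreement between the probe sets of a gene is 1 measure of how firm a result is. Of 169 probe sets of the members, 75 were above the floor, and 20 genes had more than 1 such set. For 6 of the 20, SLC1A4, SLC38A1, SLC38A10, SLC6A12, SLC7A8 and SLC7A11, the changes differed in sign. For SLC7A1, SLC38A7, SLC6A8, SLC6A6, SLC3A2, SLC6A15, SLC6A17, SLC36A4 and SLC38A9, every set above the floor moved the same way with no overlap of the groups, and the same held for both sets of SLC7A5. Even so, SLC6A17 did not pass the test, and SLC36A4 and SLC38A9 lost their calls under at least 1 alternative. Lack of overlap was common, since it held for the brightest set of 60.5% of all tested genes.

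**Figure D4:**
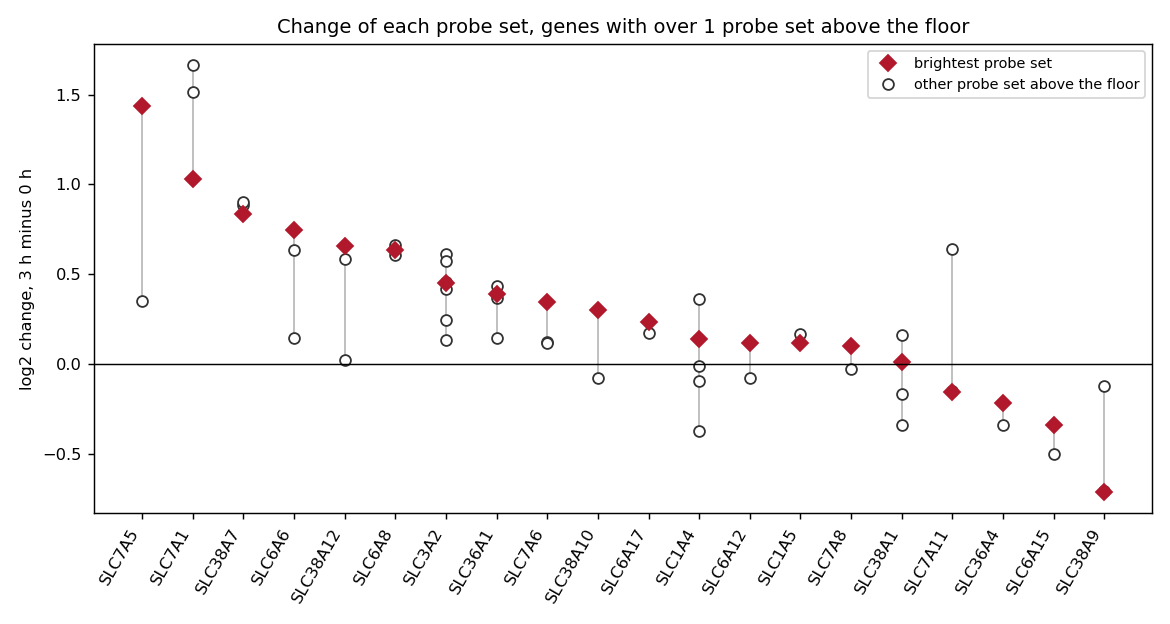
Log2 change at 3 h minus 0 h (y axis) of each probe set above the floor, for the 20 transporter genes with more than 1 (x axis), diamonds for the brightest and circles for the others. The sets of SLC38A7 lie within 0.83 to 0.90, whereas those of SLC7A5 lie at 1.44 and 0.35 and those of SLC7A11 run from -0.16 to 0.64.

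Other genes of amino acid transport and sensing were read from lists. Of 8 tested carriers outside these families 2 rose: CTNS, the lysosomal cystine exporter gene, by 0.35 and SLC66A1, the gene of a lysosomal exporter of cationic amino acids, by 0.22. Of 10 tested proteins that bind or turn over transporters 1 rose, AJUBA, by 0.63, and CD44, which stabilises xCT, stood at 0.12 (adjusted p = 0.0975). None of either list fell by the test. The 25.0% and 10.0% that rose stand beside 20.6% of all tested genes called higher, and the 0 that fell beside 30.8% called lower.

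Genes of amino acid sensing by mTORC1 were called in 16 of 26 cases, 5 higher and 11 lower, beside a background of 20.6% and 30.8%. SESN2, a leucine sensor, rose by 0.79, NPRL3, a subunit of the inhibitory GATOR1 complex, by 0.66 and SEC13, of the activating GATOR2 complex, by 0.33. MIOS, also of GATOR2, fell by 0.49. LAMTOR2, which anchors mTORC1 regulators to the lysosome and works beside SLC38A9, and FNIP1 each fell by 0.39. NPRL2, also of GATOR1, fell by 0.29, so both complexes held genes called in each direction. The median log2 change of this list was -0.13, against -0.04 over all tested genes. A further list mixed 12 genes of the response to amino acid shortage with MYC and with the antioxidant regulators NFE2L2, KEAP1 and BACH1. Of its 16 genes 6 rose and 2 fell, beside the same background, and MYC, KEAP1 and BACH1 are among these 8. EIF2AK4, the kinase that senses uncharged tRNA, stood at -0.02 (adjusted p = 0.752), and its effector ATF4 stood at -0.03 (adjusted p = 0.678). GCN1, the activator of that kinase, rose by 0.50, as did MYC, while IMPACT, its inhibitor, fell by 0.53. ATF5 rose by 0.73, and BACH1, a repressor of antioxidant genes, fell by 0.43. The listed genes ASNS (0.09), TRIB3 (0.08), CHAC1 (-0.19) and DDIT3 (-0.09) did not pass, with adjusted p-values from 0.174 to 0.308. Even so, the groups did not overlap for ASNS, higher at 3 h, and for DDIT3, lower at 3 h. ATF3 and CEBPB, on the same list, rose by 0.40 and 0.31. Whether ATF4 acted on any gene named here was not tested.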

How the data were processed

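RNA from 6 samples was amplified, biotin-labelled with a 3′ kit and hybridised to Affymetrix arrays, per the labels' protocols. The authors deposited values for 49372 probe sets, which their range shows to be log2. MAS5 and RMA are listed in the submitters' processing notes with no version or role; the sources used here give no further steps. Medians were 5.30 to 5.34 on every array, so a change of total RNA cannot be seen, and the number of arrays limits the precision.

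Groups came from the sample titles. The platform annotation gives 1 symbol to 44988 probe sets, several to 1832 and none to 2473, apart from 79 controls, and of the 44988, 44961 matched the gene table of GRCh38.p14. Each gene was represented by its brightest probe set by the mean of 6 arrays, and genes under the 40th percentile (log2 4.64) were not tested. All 12221 tested genes entered a single limma model (version 3.58.1, lmFit then eBayes, R 4.3.3), checked on simulated data first. P-values were adjusted by Benjamini-Hochberg over all of them, and genes under 0.05 are said to have risen or fallen. Each change is the 3 h mean less the 0 h mean, in log2 units. The members and lists were chosen with earlier results of these data known. Values on each array are given for members that passed with a log2 change of 0.3 or more and for a few others. Non-members are named for at most the 3 largest changes each way in a list, with EIF2AK4 and ATF4. CD44, GLUL, the epithelial, blood and endothelial markers, KEAP1 and NFE2L2 were named after their values were seen. So were ASNS, TRIB3, CHAC1, DDIT3, ATF3, CEBPB and NPRL2. Averages over all probe sets, unmarked probe sets, other floors, centring, a trended variance, a replicate block and leaving out each array were tried as alternatives.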

Additional observations from a re-analysis of the deposited data

Results flagged for a closer look

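A probe set that the annotation ties to SLC6A8 and its copies SLC6A10P and SLC6A10PB together was left out of the comparisons because it has several symbols. It read 8.25, 8.29 and 8.16 at 3 h, against 6.90, 6.90 and 6.96 at 0 h, a log2 change of 1.31 with no overlap of the groups. The 3 probe sets of SLC6A8 alone changed by 0.61 to 0.66. Which of the transcripts carries the larger change was not tested.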

How the results depend on the processing

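Of 16 called members, 10 kept their direction and call under each of the 14 alternatives that gave them a value, SLC7A5, SLC7A1, SLC3A2, SLC38A7, SLC38A12, SLC38A6, SLC6A6, SLC6A8, SLC6A15 and SLC7A6. SLC1A1, SLC36A1, SLC36A4, SLC38A10, SLC38A9 and SLC6A9 lost the call under at least 1. With only probe sets that carry no mark in their name, 4 of 14 members tested were higher and 2 lower, beside 697 and 995 of 3803 genes, fewer genes being testable, and SLC7A11 turned to 0.64 and passed. With no floor, 3 members were lower, SLC1A1 and SLC36A4 no longer passing. SLC7A11 passed as lower with a floor at the 60th percentile and with a trended, robust variance, at -0.16 in both. Leaving out each array in turn gave 11 to 14 members higher and 3 to 5 lower, and 2081 to 2525 of all genes higher and 3114 to 3627 lower. Averaging over probe sets gave 12 members higher and 4 lower. Leaving out probe sets marked as shared or cross-hybridizing, an alternative chosen after seeing the data, gave 11 and 4. The deviations of same-numbered arrays correlated at -0.04, -0.02 and -0.19, and those of differently numbered arrays at -0.14 to 0.17. With 3 arrays a group, these values cannot show whether replicate numbers pair the samples. With the replicate block 11 members were higher and 4 lower, SLC1A1 no longer passing at an unchanged -0.28. The cause of these differences was not tested. With 3 arrays a group, changes of genes near the floor such as SLC1A1 are poorly resolved.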
